A study of Mus musculus with 12 samples.

Results

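At 24-28 weeks of age, after puberty, male and female mouse spleens were compared on 4 single-channel Affymetrix arrays, 2 from males and 2 from females, across 7971 autosomal genes of 8251 genes named on the array. The members were chosen by position and not by their values: every gene on chromosomes 1 to 19 with a probe set that carries a single gene symbol. Of the 7971, 6354 reached the signal needed for a test and 1617 did not, and each gene is represented by its brightest probe set. The 8 other arrays of the series, 2 per sex at 3-4 weeks and 2 per sex at 6-9 weeks, entered the fit so that all 6 groups shared an estimate of the spread, and they served to test whether a sex difference at 24-28 weeks differed from that at the younger ages. All mice are described only by sex and age. No treatment or allele is named, and the labels leave out strain, genotype, pooling and how many animals stand behind an array. The arrays lettered a and b are not said to come from different animals. The p-values therefore reflect the spread between those arrays alone, and this spread may be technical.

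The spleen filters blood and houses both arms of immunity. Its white pulp holds B cell follicles and T cell zones, where dendritic cells and B cells present peptides on MHC class II. Its red pulp holds macrophages that clear old red cells, plasma cells and, in the mouse throughout life, islands of blood formation in which erythroblasts, megakaryocytes and granulocyte precursors divide. Neutrophil precursors fill their granules in a fixed order: azurophil granules with serine proteases and myeloperoxidase at the promyelocyte stage, specific and gelatinase granules later, and surface receptors last.

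Signals are MAS5 values brought to a common trimmed mean of 500 on every array, and differences are male minus female on the log2(signal + 32) scale, on which the change of a dim gene comes out too small. A gene was called when its limma p-value, adjusted over all 8926 tested probe sets, was below 0.05. Signals of a group are given for arrays a and b in that order, and a number alone in parentheses after a gene is its difference. The labelled sex was borne out by Xist, which had signals of 29.4 and 12.7 on the male arrays and 239 and 211 in females, and by the Y-linked Eif2s3y, at 927 and 987 against 26.7 and 27.7. Over the 8926 tested probe sets, on the log2 scale, replicate arrays had correlations of 0.964 to 0.970, against 0.873 to 0.960 for pairs from different groups. The β-actin 3' to 5' ratio, a sign of RNA quality, was 2.62 and 2.39 on the male arrays against 1.36 and 1.23 in females, and between 0.333 and 1.37 for the 8 younger samples. Because this ratio separates the male arrays from all others, it moves with every difference given here, and its part in them was not tested. Markers of spleen cells were present on all 12 arrays, with at least 43639.9 summed over 18 B cell genes, and so were genes of the pancreas, an adjoining organ, whose summed signal over 25 genes was 137455 and 141660.0 in males, 200507 and 203109 in females and 63188 to 150085 on the younger arrays.

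Of the 6354 genes tested, 1125 differed between the sexes at 24-28 weeks, 17.7% of those tested. Of these, 501 were higher in males (7.88%) and 624 were lower (9.82%). These shares serve as the background for the list counts at 24-28 weeks below. The lists were chosen with earlier results of these data known, so a count above these shares is a description and no test. On all 1125 both male arrays lay beyond both female arrays. Since this held for every call, it is no added support where it is given for single genes below. The share of all tested genes with such separation was not counted. The median difference over all tested genes was -0.08, with quartiles of -0.36 and 0.20. Of the genes called, 128 were more than 2-fold higher in males and 180 more than 2-fold lower, 33 were more than 4-fold higher and 6 more than 4-fold lower, and 15 were more than 8-fold higher and none more than 8-fold lower. At 6-9 weeks 543 genes differed (8.55%), 197 of them higher in males (3.10%) and 346 lower (5.45%). At 3-4 weeks 211 differed (3.32%), 124 higher (1.95%) and 87 lower (1.37%). Without 1 of the 4 arrays compared, the count at 24-28 weeks was lower: it was 683 without male array a, 749 without male array b, 710 without female array a and 785 without female array b.

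**Figure D1:**
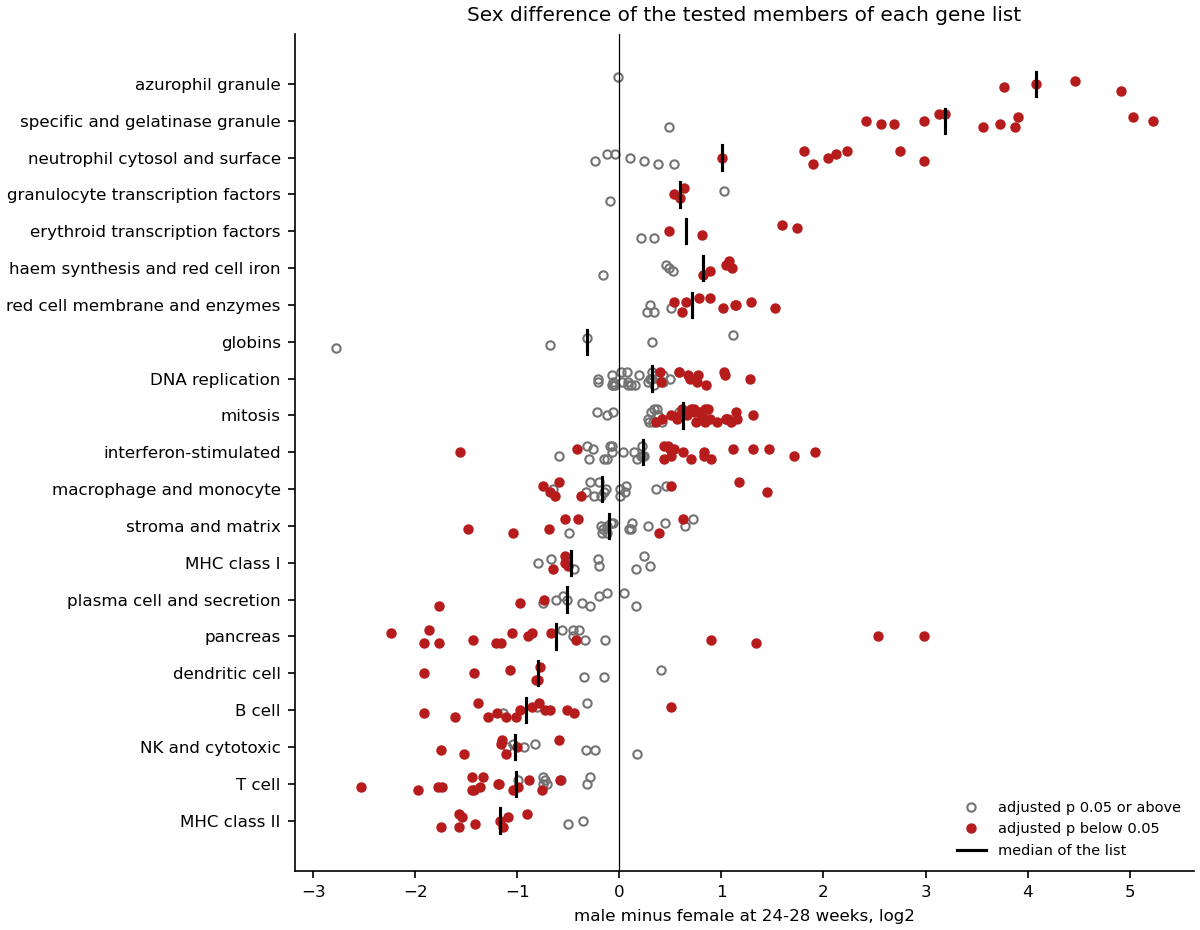
Male minus female difference at 24-28 weeks (log2 scale, horizontal axis) of each tested member of 21 gene lists; filled red points are members with an adjusted p below 0.05, open grey points are the others, and the black bar is the list's median. The granule lists stand farthest to the right, with medians of 4.08 and 3.19, red cell and mitosis genes sit mostly above 0, and T cell, B cell and MHC class II genes sit mostly below 0.

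Genes of the azurophil granule, the first granule made in a neutrophil precursor, stood among the largest differences. Prtn3, which encodes proteinase 3, had signals of 6232 and 7239 on the male arrays and 280.2 and 267 on the female arrays, a difference of 4.46 (SE 0.13, adjusted p = 1.37e-09). Its neighbour on chromosome 10, Elane (neutrophil elastase), was at 7943 and 8239 on the male arrays and 550.1 and 575 on the female arrays, and differed by 3.77 (SE 0.12, adjusted p = 3.81e-09). For both genes the replicate arrays of a sex lay close together and the sexes far apart. Mpo (myeloperoxidase, which makes hypochlorous acid) was at 2802 and 2744 in males and 97.6 and 179.5 in females, and differed by 4.08 (SE 0.23, adjusted p = 4.64e-07). Ctsg (cathepsin G) was at 4377 and 4028 in males and 96.3 and 120.3 in females, and differed by 4.92 (SE 0.29, adjusted p = 5.24e-07). The male and female arrays did not overlap for any of these 4 genes, and the males also lay above all 8 younger arrays, which spanned 311 to 1074 for Prtn3, 574 to 1553 for Elane, 167 to 668 for Mpo and 36.3 to 339 for Ctsg. The fifth tested member, Serpinb1a, an inhibitor of these proteases, was at 126 and 82.1 in males and 85.5 and 123 in females, a difference of -0.01 that did not pass the test (adjusted p = 0.988). In all, 4 of 5 tested members were called higher, against 7.88% of all genes, with a list median of 4.08. In a bulk sample more cells of a type and more RNA per cell cannot be told apart, here and in all that follows.

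The promoters of the neighbouring pair are shown because the same short purine-rich run precedes both starts. They are the last 120 bases before the RefSeq start on GRCm38.p6, 5′ to 3′ in the direction of the gene, from chr10:79879547-79879666 for Prtn3 and chr10:79886192-79886311 for Elane, both on the plus strand, with AGGAAGT in capitals.
Prtn3: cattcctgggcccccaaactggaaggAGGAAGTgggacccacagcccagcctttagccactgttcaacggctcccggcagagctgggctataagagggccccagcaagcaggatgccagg
Elane: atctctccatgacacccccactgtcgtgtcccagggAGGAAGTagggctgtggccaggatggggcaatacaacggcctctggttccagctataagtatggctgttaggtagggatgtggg
AGGAAGT holds the GGAA core bound by ETS family factors, to which the granulocyte and macrophage factor encoded by Spi1 belongs. It was searched for on both strands of windows reaching from 250 bases before to 50 bases after each start, and it was chosen after the Prtn3 window had been read. The match of Prtn3 was therefore fixed in advance. A match was also present for Elane, Mpo and Ctsg, the other azurophil granule genes that have a window, and for 3 of 10 specific and gelatinase granule genes. Of 5082 tested autosomal genes with a window 551 had a match, or 10.8%. The share was 13.0% for genes higher in males, 15.5% for genes lower in males and 25.9% for the interferon-stimulated list. These are matches of letters and not measured binding sites.

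**Figure D2:**
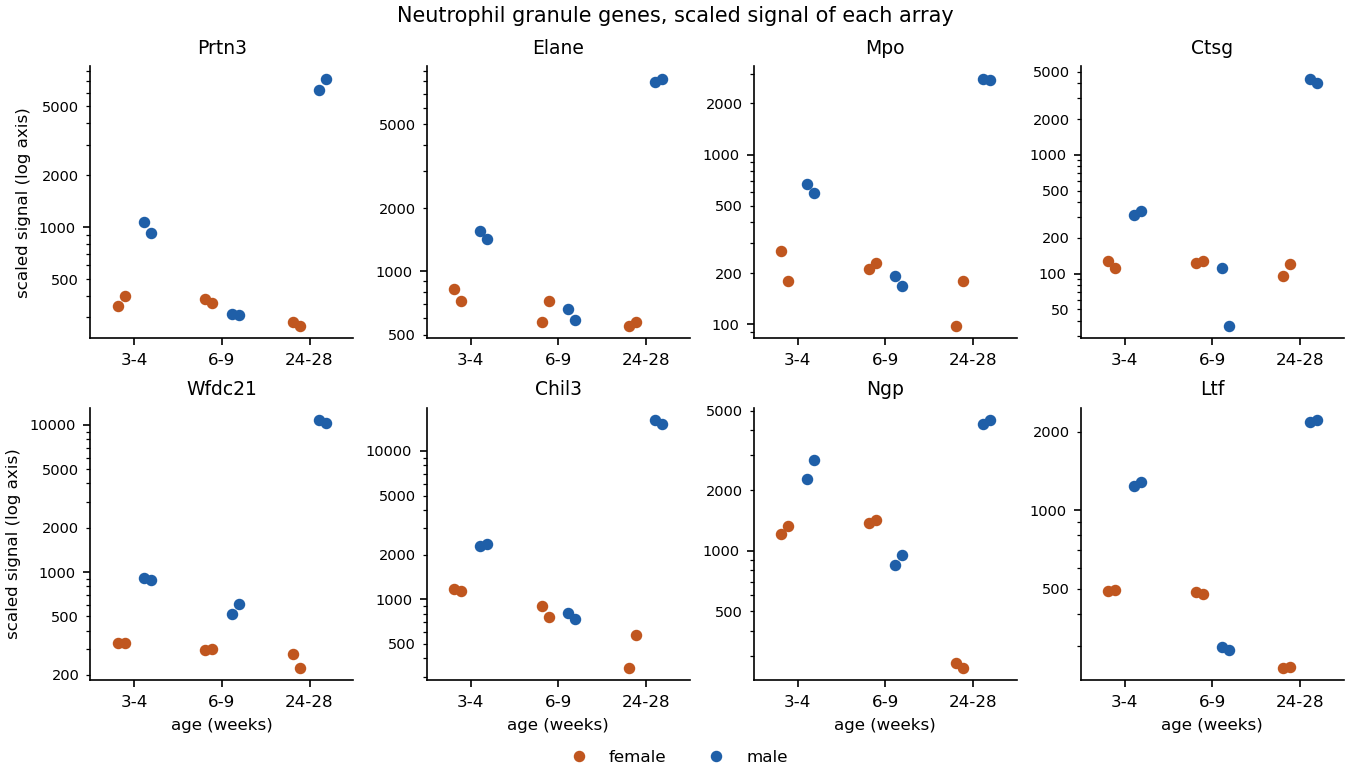
Scaled signal (log axis) of 4 azurophil granule genes (top row) and 4 genes of later granules (bottom row) on each of the 12 arrays, by age in weeks, with females in orange and males in blue; each point is an array. The 2 male arrays at 24-28 weeks lie above every other array in all 8 panels.

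Genes of the specific and gelatinase granules, filled later in the same lineage, came next: 12 of 13 tested members were higher in males, against 7.88% of all genes, and none lower, with a median of 3.19. Wfdc21, a small secreted protein with a whey acidic protein domain, had the largest difference of all autosomal genes, with signals of 10744 and 10318 on the male arrays and 278 and 224 on the female arrays (5.23, SE 0.12, adjusted p = 5.62e-10). Chil3, a chitinase-like protein of granulocyte precursors and activated macrophages, was at 16107 and 15088 in males and 345 and 572 in females (5.03, SE 0.18, adjusted p = 6.89e-09). Ngp (neutrophilic granule protein) was at 4284 and 4475 in males and 275 and 261 in females (3.88, SE 0.12, adjusted p = 2.1e-09). For Ngp the 8 younger arrays spanned 853 to 2841, so the males lay above and the females below all of them. The same order held for Ltf (lactoferrin, which binds iron), at 2183 and 2210.2 in males and 249 and 249 in females, against 289.5 to 1284 on the younger arrays. Camp, the cathelicidin precursor, was at 25999 and 23753 in males and 4444 and 4791 in females, with a difference of 2.42. The remaining members called were Mmp8 (3.91) and Mmp9 (3.13), which cleave collagen and gelatin, Lcn2 (3.73), which captures bacterial siderophores, Ifitm6 (3.57), Hp (3.19), which binds free haemoglobin, Pglyrp1 (2.56), which binds peptidoglycan, and Anxa1 (2.69). Adam8, a surface metalloproteinase, was the member not called, at 60.2 and 168 in males and 42.4 and 94.2 in females (adjusted p = 0.475). Summed over the 13 genes, the signal was 94104 and 93343 in males and 9923 and 10518 in females, against 12845 to 31863 on the younger arrays.

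Genes for proteins of the neutrophil's cytosol and surface showed smaller differences, with 8 of 15 tested members higher, against 7.88% of all genes. None was lower, and the median was 1.01. S100a8 and S100a9 form calprotectin, the main cytosolic protein of neutrophils. S100a9 was at 25999 and 23571 in males and 5155 and 5363 in females (2.23, SE 0.12, adjusted p = 2.37e-07). S100a8 was at 28890.0 and 28012 in males and 6200.1 and 6849.7 in females (2.12). For both genes the sexes did not overlap. Ly6g, a surface marker of mouse neutrophils, was at 1022 and 809 in males and 89.7 and 129.9 in females (2.75, SE 0.23, adjusted p = 9.79e-06). Il1r2, the decoy receptor for interleukin 1, was at 2245 and 2417 in males and 339.6 and 208 in females (2.98). Also called were Fpr2 (1.81), a receptor for formyl peptides, Clec4d (1.90), Itgam (2.05), the α chain of the complement receptor integrin, and Padi4 (1.01), which citrullinates histones. Il1b, which mature phagocytes make on stimulation, was at 725 and 807 in males and 582 and 583 in females and did not pass (adjusted p = 0.0635). Among granulocyte transcription factors 3 of 5 were higher: Spi1 (0.63), Cebpb (0.59) and Cebpd (0.53). Cebpa, needed for the step into the granulocyte lineage, was at 569.6 and 631 in males and 689 and 594 in females, with no call (adjusted p = 0.713). Gfi1, a repressor in granulocyte formation, was not called either, at 152 and 121 in males and 56.3 and 45.6 in females (adjusted p = 0.0566). Of 8 genes of eosinophils, basophils and mast cells 2 were higher. Hdc (histidine decarboxylase, which makes histamine) was at 601 and 700.2 in males and 104 and 111 in females (2.29). Mcpt8, a basophil protease, was at 424 and 459.7 in males and 183 and 57.8 in females (1.77). Prg2, Prg3 and Epx of eosinophil granules were not called, with differences of -0.44, -0.38 and 0.05. The smaller calls here did not survive the loss of an array, though the differences kept their sign. At their smallest, Padi4 differed by 0.62 and Spi1 by 0.50 without female array b. Cebpb differed by 0.45 without female array a and Cebpd by 0.41 without male array a. Padi4 and Cebpb also lost their call without some younger arrays, with differences unchanged.

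The other gene among the 12 largest increases was Saa3, an acute phase serum amyloid A made outside the liver, at 5363 and 5211 in males and 170.3 and 179 in females (4.69, SE 0.32, adjusted p = 2.3e-06). Its female arrays also lay above the younger arrays, which spanned 19.8 to 84.3. In an acute phase list drawn up after these values were seen, 6 of 9 tested genes were higher and none lower: besides Saa3 and Hp these were Saa2 (1.82), Lrg1 (1.79), Orm1 (1.48) and Lbp (0.91). The last 2 did not survive the loss of an array: Orm1 (adjusted p up to 0.137 without male array a) and Lbp (adjusted p up to 0.217 without male array a). The chemokine gene Ccl9 was at 3010.4 and 2989 in males and 543 and 628 in females (2.30, SE 0.14, adjusted p = 8.17e-07), and it was the only one of 15 tested cytokine and chemokine genes called higher, beside 3 called lower. Those were Il16 (-1.04), Ltb (-1.20), which lymphocytes use to maintain follicles, and Tgfb1 (-0.97). Of all genes tested, 7.88% were higher and 9.82% lower. Liver genes, which would mark hepatic RNA, were low in both sexes, and limma called none of the 4 tested, none of which had an unadjusted p below 0.05, with albumin (Alb) at 111 and 67.7 in males and 69.9 and 86.9 in females.

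Genes of red cell formation were also higher in males, by less than the granule genes. Of the transcription factors, 4 of 6 were called. Nfe2, which drives globin and platelet genes, was at 3783 and 3959 in males and 1133 and 1139 in females (1.74, SE 0.10, adjusted p = 4.47e-07). Tal1, needed to form blood and then red cells, was at 1877 and 1815 in males and 559 and 619 in females (1.60, SE 0.16, adjusted p = 4.56e-05). Klf1, which activates adult β-globin (0.81), and Lmo2 (0.48) were the other two. Gfi1b (0.34, adjusted p = 0.206) and Zfpm1 (0.21, adjusted p = 0.513) were not. In the pathway that builds haem, 5 of 9 tested genes were higher and none lower. Alad, the second enzyme of the pathway, was at 4068 and 4204 in males and 2144 and 2283 in females (0.89, SE 0.12, adjusted p = 0.000265). Uros was at 5027 and 4856 in males and 2349 and 2402 in females (1.05, SE 0.10, adjusted p = 2.86e-05). Urod, the enzyme that follows it, was at 6937 and 7237 in males and 3256 and 3291 in females (1.11). For all 3 of these genes both male arrays lay above both female arrays. Ppox, the last enzyme but one, differed by 1.07 and the mitochondrial transporter gene Abcb10 by 0.82. The Tfrc gene for the transferrin receptor, which brings in iron, was at 4238 and 3746 in males and 2713 and 2813 in females and was not called (adjusted p = 0.107). Of red cell membrane and enzyme genes, 10 of 14 were higher. Rhag of the Rhesus complex was at 7896 and 8259 in males and 2574 and 3007 in females (1.53), and its partner Rhd at 5724 and 6706 in males and 2780.5 and 2832 in females (1.13). Slc4a1, the band 3 anion exchanger, was at 2326 and 2688 in males and 953 and 1053 in females (1.29, SE 0.12, adjusted p = 1.6e-05). Aqp1 (a water channel) differed by 1.01, Car2 (carbonic anhydrase) by 0.78, Epb42 by 1.14, Hemgn by 0.89, Epor, the erythropoietin receptor, by 0.66, Car1 by 0.54 and Cat (catalase) by 0.61. Calls were lost when an array was left out for Klf1 (adjusted p up to 0.0863 without female array b), Lmo2 (adjusted p up to 0.078 without male array a) and Epor (adjusted p = 0.0545 without male array a).

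None of the 5 globin genes was called by limma, and 2 had an unadjusted p below 0.05. Hbb-b2 (adult β chain) was at 24336 and 25338 in males and 18167 and 21739 in females, a difference of 0.32 (adjusted p = 0.204). Hba-a1 (adult α chain) was at 5702 and 582 in males and 15224 and 10786 in females, so that the male arrays were far apart: the difference was -2.77 (SE 1.02, adjusted p = 0.0898). The embryonic globin gene Hba-x was at 96.9 and 101 in males and 189 and 167 in females (adjusted p = 0.116). Hbb-y was at 346 and 280.5 in males and 289 and 46.6 in females (adjusted p = 0.195) and Hbb-bh1 at 85.3 and 80.5 in males and 183 and 62.9 in females (adjusted p = 0.76). The globin calls depended on single arrays: 1 gene was called higher without female array a or without either male array of 6-9 weeks, and 1 lower, Hba-a1, without male array a. Of 4 platelet and megakaryocyte genes tested, Gp1bb, part of the receptor for von Willebrand factor, was higher, at 226 and 267 in males and 52.2 and 103 in females (1.38, SE 0.28, adjusted p = 0.00521), and Gp9 of the same receptor was at 620.3 and 485 in males and 126 and 355 in females with no call (adjusted p = 0.0878), while 2 of the 4 were called without female array b or without either male array of 6-9 weeks. Of 10 stem and progenitor genes Myb, a factor of dividing progenitors, was called, against 7.88% of all genes called higher. It was at 1417 and 1374 in males and 693 and 604 in females (1.07, SE 0.10, adjusted p = 2.67e-05). Kit (0.16) and Cd34 (0.34), which mark early progenitors, were not called.

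Many cell division genes were higher in males: 25 of 39 mitosis genes and 11 of 37 DNA replication genes were called higher and none lower, with medians of 0.63 and 0.32. Cks2, a subunit of cyclin-dependent kinases, was at 10581 and 9988 in males and 4658 and 5259 in females (1.05, SE 0.09, adjusted p = 8.69e-06), and Birc5 (survivin) at 4680.2 and 5031 in males and 2209 and 2146 in females (1.14, SE 0.10, adjusted p = 1.25e-05). Aurka, a spindle kinase, differed by 1.15, the microtubule regulator Stmn1 by 0.87, Cks1b by 1.09, Cdc20 by 0.84 and Cdk1, the kinase that starts mitosis, by 0.78. Of the replication genes, those that supply nucleotides led: Rrm1 and Rrm2, the subunits of ribonucleotide reductase, differed by 1.28 and 1.03, and Tk1 (thymidine kinase) by 1.03. The DNA clamp gene Pcna was at 13462 and 16189 in males and 9956 and 9770.3 in females (0.58, SE 0.11, adjusted p = 0.00414). Without male array b the call of Pcna was lost (adjusted p = 0.0537), and without either male array 7 replication genes were called in place of 11. Of mitochondrial respiration genes 19 of 70 were higher, against 7.88% of all genes, and none lower, with a median of 0.16. The 3 with the largest differences were Atp5k (0.94) and Atp5md (0.79) of ATP synthase and Ndufb9 (0.70) of complex I. Of 28 cytosolic ribosomal protein genes 1 was higher, Rpl13a (0.58), and 1 lower, Rpl22 (-0.62), where 7.88% of all genes were higher and 9.82% lower. The respiration count was 4 without female array a, 10 without female array b, 5 without male array a and 7 without male array b, and the call of a ribosomal gene was lost for Rpl22 (adjusted p up to 0.247 without male array a).

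In a list of amino acid response genes, drawn up after Trib3 had been seen among the large differences, 9 of 26 were higher and 1 was lower. Trib3, a pseudokinase of the response to amino acid shortage, was at 257 and 322 in males and 28.7 and 39.3 in females (2.28, SE 0.36, adjusted p = 0.00106). Atf4, the factor that drives the response, was at 5599 and 5350.0 in males and 3308 and 3167 in females (0.75, SE 0.14, adjusted p = 0.00298), Asns (asparagine synthetase) differed by 0.95 and the transfer RNA synthetase genes Aars, Cars, Sars and Gars by 1.10, 1.15, 0.69 and 0.53. Ddit4 was the member called lower (-0.54), and no member was called lower without any 1 of the 4 arrays, or without a male array of 3-4 weeks or any array of 6-9 weeks. Without female array a or male array a, 5 members were higher, and Cars was among those lost (adjusted p up to 0.204).

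**Figure D3:**
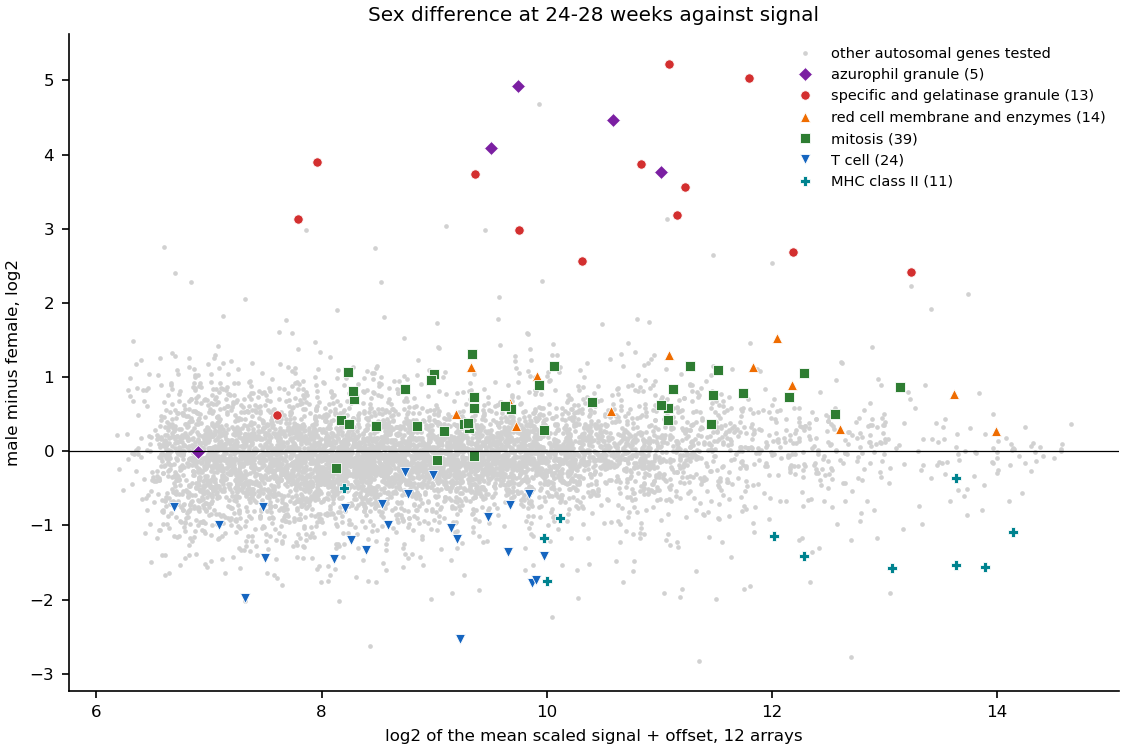
Male minus female difference at 24-28 weeks (log2 scale, vertical axis) against the mean scaled signal over the 12 arrays (log2 scale, horizontal axis) for the 6354 autosomal genes tested, with the members of 6 gene lists marked. All granule genes but Serpinb1a and Adam8 lie above 2 on the vertical axis, and T cell and MHC class II genes lie below 0.

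T cell genes were lower in males. Of 24 tested members 16 were called lower and none higher, against 9.82% of all genes, and all 24 differences were below 0, with a median of -1.02. Cd3e, a chain of the T cell receptor complex, was at 54.6 and 84.3 in males and 615 and 489 in females (-2.53, SE 0.23, adjusted p = 1.5e-05), and its partners Cd3d and Cd3g differed by -1.42 and -1.19. Cd8a, the co-receptor of cytotoxic T cells, was at 220.5 and 215 in males and 759 and 895 in females (-1.78, SE 0.11, adjusted p = 1.04e-06). Both male arrays lay below all 8 younger arrays for Cd3e, which spanned 558 to 962, and for Cd8a, which spanned 699.8 to 1673. Cd2 (-1.74) and Thy1 (-1.36), surface proteins of T cells, Icos (-1.97), a costimulatory receptor, and Satb1 (-1.04), a chromatin organiser of thymocytes and T cells, were lower too. For Icos and Cd3e the male signals were under the level of 100 set for a test, so that the offset of 32 shapes the size of their difference. Of 14 NK and cytotoxic genes 7 were lower, with a median of -1.02. Klrd1, an NK receptor chain, was at 567 and 453 in males and 1131 and 1197 in females (-1.15, SE 0.11, adjusted p = 3.52e-05). The others were the chemokine Ccl5 (-1.52), Ctsw (-1.75), Fasl (-1.15), Klrg1 (-1.11), Gzma (-0.59) and Ncr1 (-1.0). Prf1 (perforin) missed the threshold at 18.3 and 66.8 in males and 100.4 and 127 in females (adjusted p = 0.0503). The NK list had 3 members lower without female array a and 4 without female array b, calls being lost for Fasl (adjusted p up to 0.0941 without male array a), Klrg1 (adjusted p up to 0.0871 without male array b), Gzma (adjusted p up to 0.129 without male array b) and Ncr1 (adjusted p up to 0.168 without male array a). Among the 12 largest decreases was Traf1, an adaptor of TNF receptors in activated lymphocytes, at 32.4 and 26.3 in males and 328 and 365 in females (-2.63, SE 0.18, adjusted p = 2.23e-06).

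Of 18 B cell genes 14 were lower in males, 1 was higher and 3 were not called, with a median of -0.92. Blk, a kinase of the B cell receptor pathway, was at 951 and 1033 in males and 2441 and 2499 in females (-1.29, SE 0.09, adjusted p = 3.19e-06). Of the signalling chains of the receptor, Cd79a was at 1592 and 1659 in males and 3647 and 3893 in females (-1.20) and Cd79b at 5897 and 5976 in males and 11152 and 12275 in females (-0.98). Ms4a1 (CD20) was at 9420.5 and 9386 in males and 16259.5 and 17857 in females (-0.86). The inhibitory receptor gene Cd72 differed by -1.61, the coactivator Pou2af1 by -1.11, Cd37 by -0.79, and Fcer2a, the low-affinity IgE receptor of mature B cells, by -1.91. The exception was Cd24a, at 20709 and 19894 in males and 14461 and 14131 in females (0.50, adjusted p = 0.013), which B cells share with erythroblasts and granulocyte precursors, and no B cell gene was called higher without any 1 of the 4 arrays. Of 5 genes of B cell precursors 1 was lower, Vpreb3 (-1.51), and without female array b another 1 was called higher. Summed over the 18 genes the B cell signal was 43999 and 43639.9 in males and 58381 and 61146 in females, against 54840.3 to 68503 at the younger ages, so the male arrays were the lowest of the 12.

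Of 5 immunoglobulin constant region genes 1 was lower in males. Ighg3, the IgG3 constant region, was at 4302 and 4197 in males and 10939 and 11930.0 in females (-1.42, SE 0.10, adjusted p = 2.31e-06), and both sexes exceeded the younger arrays, which spanned 477 to 1152. With the mean over a gene's probe sets 3 of the 5 were lower. Ighm, Ighd, Igha and Iglc1 were not called from the brightest probe set, with differences of 0.23, -0.27, -0.12 and -0.48. For Ighm the sign depended on the probe set: of its 11 tested probe sets the 10 others gave the opposite sign to the brightest, and the mean over all gave -1.03 (adjusted p = 4.05e-05). Variable region genes supplied 4 of the 12 largest decreases. Igkv8-30, a κ light chain segment, was at 1270.3 and 1236 in males and 9159.5 and 9030.4 in females (-2.83, SE 0.12, adjusted p = 2.8e-08). The other three were Igkv8-19 (-1.99), Igkv4-59 (-1.98) and Ighv1-54 (-1.97). Over all 20 variable region genes tested, a list formed after these were seen, 16 were lower and none higher, with a median of -1.45. Their probe sets can match related V genes, so the identity of each is uncertain. At 6-9 weeks 15 of these 20 genes were higher in males, against 3.10% of all genes, and 1 was lower, against 5.45%. Their median was 1.18. At 3-4 weeks limma called none of the 20, with 4 at an unadjusted p below 0.05. Jchain, which joins IgM and IgA into polymers, was at 5843 and 6121 in males and 11966 and 11652 in females (-0.98, SE 0.11, adjusted p = 0.000117), and the plasma cell factors Irf4 (-1.76) and Xbp1 (-0.74) were lower, the other 10 of 13 plasma cell and secretion genes giving no call. Without male array a, 5 of the 13 were called lower.

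**Figure D4:**
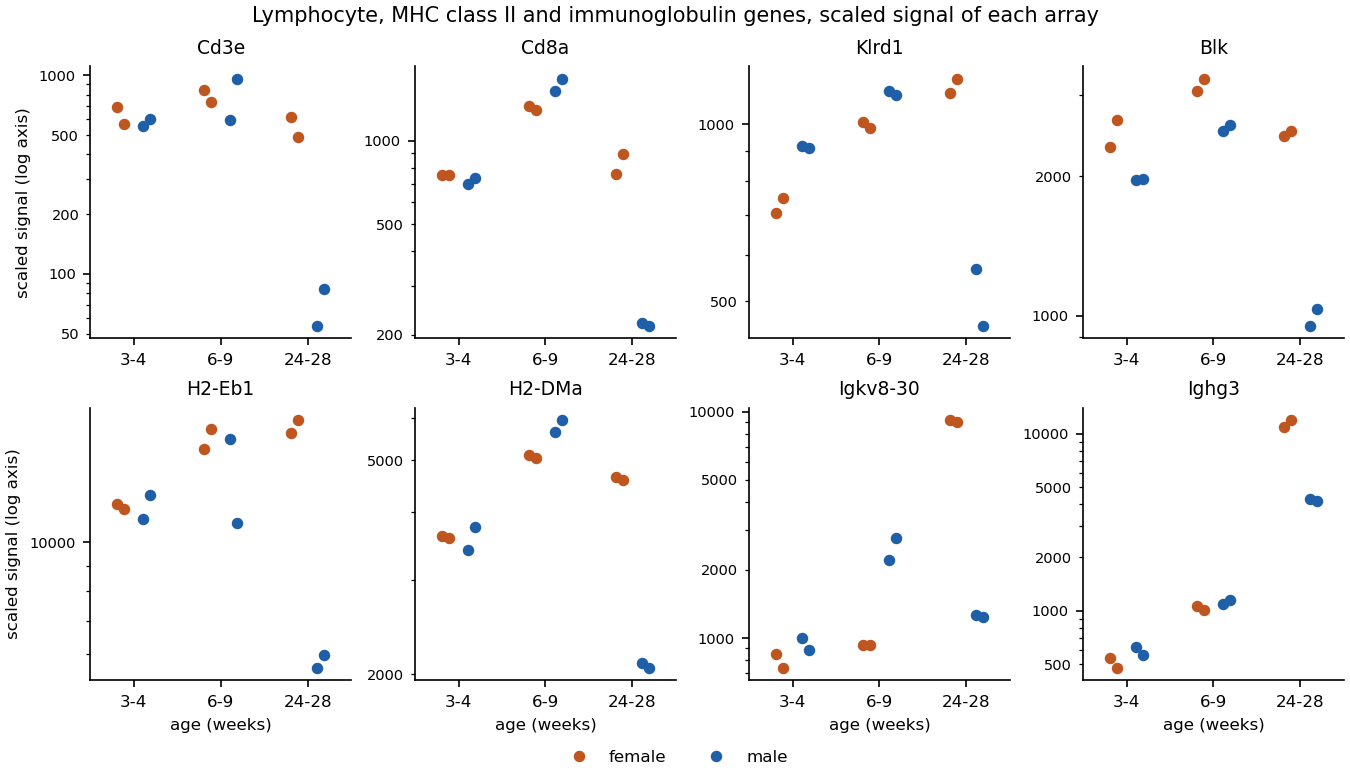
Scaled signal (log axis) of T cell (Cd3e, Cd8a), NK cell (Klrd1), B cell (Blk), MHC class II (H2-Eb1, H2-DMa) and immunoglobulin (Igkv8-30, Ighg3) genes on each of the 12 arrays, by age in weeks, with females in orange and males in blue; each point is an array. In the first 6 panels the 2 male arrays at 24-28 weeks lie below all 10 other arrays, and in the last 2 panels the 2 female arrays at 24-28 weeks lie above all others.

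Genes of antigen presentation on MHC class II were lower in males: 9 of 11 tested were called lower, none higher, with a median of -1.17. Of the peptide-binding chains, H2-Aa was at 9464 and 9447 in males and 19351 and 20956 in females (-1.09, SE 0.20, adjusted p = 0.00283). H2-Ab1 was at 4362 and 4063 in males and 12288 and 12916 in females (-1.57) and H2-Eb1 at 5648 and 5987 in males and 16505 and 17462 in females (-1.54). None of the 3 had overlapping arrays. Cd74, the invariant chain that guards the groove, was at 4345 and 4613 in males and 12792 and 13894 in females (-1.57, SE 0.21, adjusted p = 0.000317). The peptide exchange factors H2-DMa (-1.14), H2-DMb1 (-1.41) and H2-DMb2 (-1.17) and their B cell regulators H2-Oa (-0.90) and H2-Ob (-1.75) were lower as well. The 2 members not called were Ctss and Ciita. Ctss, the protease that trims the invariant chain, was at 9025 and 8559.6 in males and 11511 and 10997 in females (adjusted p = 0.0904). Ciita, the master regulator of the class, was at 115 and 130.1 in males and 212 and 163 in females (adjusted p = 0.114). Of 9 dendritic cell genes 6 were lower. Cd83, a marker of mature dendritic cells, was at 985 and 866 in males and 3379 and 3752 in females (-1.91, SE 0.16, adjusted p = 7.86e-06). The others were Irf8 (-0.78), Batf3 (-0.81) and Xcr1 (-1.42), which mark cross-presenting dendritic cells, Itgax (-0.80) and Fscn1 (-1.07). In the class I pathway 4 of 12 were lower: the immunoproteasome subunits Psmb8 (-0.50), Psmb9 (-0.53) and Psmb10 (-0.65), and the peptide transporter Tap1 (-0.54). Of the genes in these lists, the call was lost for Fscn1 (adjusted p up to 0.304 without male array a).

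Of 22 macrophage and monocyte genes 3 were higher and 5 lower, where 7.88% of all genes were higher and 9.82% lower. Ccr2, the receptor that brings monocytes out of marrow, was at 1256 and 1109.7 in males and 363 and 472 in females (1.44, SE 0.14, adjusted p = 2.36e-05). The scavenger receptor gene Msr1 differed by 1.17 and Cd5l by 0.51. Lower were Apoe (-0.68), the complement chains C1qa (-0.74) and C1qc (-0.37), Cd68 (-0.59) and Csf1r (-0.63), the receptor for macrophage colony-stimulating factor. Of 22 stromal and matrix genes 5 were lower and 2 higher, beside the same shares of all genes. Dcn (decorin) was at 789.8 and 890.1 in males and 2225 and 2573 in females (-1.48, SE 0.13, adjusted p = 1.25e-05). Cxcl13, which attracts B cells to follicles, was at 412 and 375 in males and 866 and 819 in females (-1.04, SE 0.13, adjusted p = 0.000208). Cxcl12 (-0.53), Sparc (-0.40) and Mgp (-0.69) were lower, while Fn1 (0.62) and Tagln (0.39) were higher. Madcam1, an adhesion molecule of marginal sinus endothelium, was at 267 and 355 in males and 575 and 581 in females (-0.84, SE 0.17, adjusted p = 0.00571). It and Cldn5 (-0.54) were the only 2 of 13 endothelial genes called, both lower, against 9.82% of all genes. Several of these calls, macrophage and stromal, did not survive the loss of 1 of the 4 arrays, though the differences kept their sign. Cxcl12, for example, differed by -0.49 to -0.57 whichever of the 4 was left out. Csf1r also lost its call without some younger arrays, with its difference unchanged. The 2 higher stromal genes were 4 without female array b and 0 without any other of the 4 arrays. Calls were lost for Cd5l (adjusted p up to 0.247 without female array a), C1qc (adjusted p up to 0.164 without male array a), Cd68 (adjusted p up to 0.111 without female array a) and Csf1r (adjusted p up to 0.309 without male array b), for Fn1 (adjusted p up to 0.0704 without female array a), Tagln (adjusted p up to 0.169 without female array a), Cxcl12 (adjusted p up to 0.127 without male array b), Sparc (adjusted p up to 0.128 without male array a) and Mgp (adjusted p up to 0.154 without male array b), and for Madcam1 (adjusted p = 0.0591 without male array a).

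Interferon-stimulated genes were higher in males in 16 of 34 members and lower in 2, with a median of 0.24. Of all genes, 7.88% were higher and 9.82% lower. Isg15, a ubiquitin-like protein, was at 22224 and 21036 in males and 5477 and 5909.8 in females (1.92, SE 0.11, adjusted p = 4.01e-07). Usp18, which removes it from proteins, was at 2171 and 2263 in males and 905 and 849 in females (1.31, SE 0.10, adjusted p = 5.76e-06). The antiviral gene Rsad2 (viperin) was at 4703 and 5100.2 in males and 1636 and 1878 in females (1.47). In each of these 3 genes both male arrays lay above both female arrays. Ifit1, which binds viral RNA, was at 1352 and 1609 in males and 458 and 399 in females (1.71). Isg20 (1.12), Igtp (0.83) and Ifitm3 (0.70) were higher too. Without female array a the count of higher members was 10. The 2 lower members were Cxcl9 and Irf1. Cxcl9, a chemokine that interferon γ induces, was at 119 and 75.5 in males and 349.7 and 335 in females (-1.56, SE 0.20, adjusted p = 0.000227), and Irf1 differed by -0.41. The list was higher in males at the younger ages too: its median was 0.89 at 3-4 weeks, with 22 members called higher against 1.95% of all genes, and 0.43 at 6-9 weeks, with 15 against 3.10%. The sex difference at 24-28 weeks lay above that at the younger ages in 3 members (Isg15, Isg20 and Rsad2) and below it in 12. Among the 12, the difference between ages was -1.17 for Gbp2, -1.93 for Cxcl9 and -0.89 for Irf1. Slfn4, a schlafen gene of myeloid cells, was at 5154 and 4574 in males and 627 and 439 in females (3.13, SE 0.19, adjusted p = 5.87e-07). It was called at 6-9 weeks (2.46) and at 3-4 weeks (2.62) as well, the difference between ages being 0.59 (adjusted p = 0.1). Slfn1 (0.56, adjusted p = 0.0824) and Slfn2 (0.17, adjusted p = 0.335) were not called. Of the 3 genes, 2 were called higher without male array b or without either male array of 3-4 weeks, Slfn1 being the one added.

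The promoters of 4 interferon-stimulated genes are shown because they carry the known response element while their sex differences were unlike. Isg15 (chr4:156200819-156200938, minus strand) and Ifit1 (chr19:34640769-34640888, plus strand) were higher in males. Gbp3 (chr3:142559924-142560043, plus strand), at 1071 and 985 in males and 1143 and 1101 in females, was not called. Irgm1 (chr11:48871421-48871540, minus strand), at 274 and 247 in males and 214 and 221 in females, was not called either. For Gbp3 the start with matches is shown, and the window of another RefSeq start of the gene held none. Each line gives the 120 bases before the RefSeq start on GRCm38.p6, 5′ to 3′ along the gene, with matches to GAAANNGAAA on either strand in capitals, where overlapping matches run together.
Isg15: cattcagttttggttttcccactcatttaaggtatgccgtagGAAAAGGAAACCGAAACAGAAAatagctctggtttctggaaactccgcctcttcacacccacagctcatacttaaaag
Ifit1: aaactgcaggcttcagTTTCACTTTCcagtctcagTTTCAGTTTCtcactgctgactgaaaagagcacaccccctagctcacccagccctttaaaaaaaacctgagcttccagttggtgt
Gbp3: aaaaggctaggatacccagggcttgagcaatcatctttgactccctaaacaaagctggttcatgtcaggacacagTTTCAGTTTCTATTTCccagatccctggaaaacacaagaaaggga
Irgm1: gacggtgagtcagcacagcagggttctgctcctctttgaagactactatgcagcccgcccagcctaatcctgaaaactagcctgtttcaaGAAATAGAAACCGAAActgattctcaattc
The element was found in the windows from 250 bases before to 50 bases after the start of 13 of 27 tested list members that have one, against 196 of 5082 tested autosomal genes, or 3.86%. It was present in 7 of 13 members called higher and in 6 of 14 others.

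Genes of the pancreas differed as well: of 22 tested, 12 were lower in males and 4 higher, with a median of -0.62. The lipase gene Cel was at 4087 and 4547 in males and 15299.6 and 17401 in females (-1.91), and the related Pnliprp1 at 2201 and 2562 in males and 8496 and 8951 in females (-1.86). Rnase1 was at 544 and 509.7 in males and 2585 and 2619 in females (-2.24). Sycn, a zymogen granule protein, was at 900.2 and 1051 in males and 3137 and 3671 in females (-1.77). Clps (colipase), Ctrl and Klk1 differed by -1.05, -1.16 and -0.89. Members did not keep a fixed ratio: Reg3a, Reg3b and Reg3g, lectins that the inflamed pancreas and gut secrete, were higher in males. Reg3a was at 4566 and 4333 in males and 1764 and 1703 in females (1.34). Reg3b was at 18980.2 and 16644 in males and 9566 and 9512 in females (0.90) and Reg3g at 734 and 792 in males and 47.0 and 95.5 in females (2.98). The elastase gene Cela2a (2.53) was the fourth member called higher. At 6-9 weeks 16 of the 22 were higher in males and 1 lower, with a median of 1.28. Of all genes at that age, 3.10% were higher and 5.45% lower. The 2 female arrays at 24-28 weeks had the highest summed pancreas signal of the 12, and its part in the other differences was not tested. Of 11 adipose genes 2 were lower, Scd1 (-1.11) and Adipoq (-1.11), against 9.82% of all genes. Of 8 skeletal muscle genes limma called none, with 2 at an unadjusted p below 0.05.

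None of 14 immediate early genes was called by limma, and none had an unadjusted p below 0.05. Of 8 heat shock genes Hspe1 (0.45) and Hsp90aa1 (0.45) were higher, against 7.88% of all genes, and the stress-inducible Hspa1a was at 144 and 70.4 in males and 88.1 and 101 in females with no call. Of 7 steroid response genes Hsd11b1, which reactivates glucocorticoid, was at 1934 and 1753 in males and 1173 and 1340.0 in females (0.54, SE 0.11, adjusted p = 0.00469), and Sgk1 (-0.58) was lower, so that 2 of the 7 were called against 17.7% of all genes. Calls in these lists were lost for Hsp90aa1 (adjusted p up to 0.122 without female array b), Hsd11b1 (adjusted p = 0.0528 without male array a) and Sgk1 (adjusted p up to 0.0726 without female array a). The oestrogen receptor gene Esr1 was at 199 and 61.1 in males and 75.2 and 138 in females with no call. Of 6 complement genes 1 was lower, Cd55 (-0.74), which protects cells from complement, against 9.82% of all genes. Other large decreases were Prss30 (-1.99), Fam189b (-2.02) and Prp2 (-2.02), and for Fam189b both male signals were under the level of 100.

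The contrast of the sex difference at 24-28 weeks against its mean at 3-4 and 6-9 weeks tested whether they differed. It cannot show that a difference was particular to that age. A gene called at all 3 ages, or with an opposite difference at a younger age, can pass. The contrast was called for 1185 genes, or 18.6%: the sex difference lay above the younger ages in 590 (9.29%) and below in 595 (9.36%). Of the 1125 genes called at 24-28 weeks, 831 were also called for the contrast with the same sign, 5 with the opposite sign and 289 not; both tests use the same 4 arrays, so this overlap is no independent support. The 5, named after their values were seen, were the interferon-stimulated Ifit2, Ifit3, Iigp1 and Irf7 and the lectin gene Reg3b, higher in males at 24-28 weeks but by less than at the younger ages. The genes with the 10 smallest p-values of the contrast are given with its size, not the difference at 24-28 weeks, in parentheses. They were the granule genes Wfdc21 (4.13), Ngp (3.70), Prtn3 (3.90), Elane (3.33), Ifitm6 (2.57) and Chil3 (4.59). The others were the variable region genes Igkv8-30 (-3.64) and Igkv8-19 (-2.77) and the pancreas genes Pnliprp1 (-2.81) and Sycn (-3.12). By list, the contrast lay above 0 and was called for 4 of 5 azurophil granule genes, 11 of 13 genes of later granules, 11 of 14 red cell membrane genes and 26 of 39 mitosis genes. It lay below 0 and was called for 10 of 11 MHC class II genes, 14 of 24 T cell genes, 11 of 18 B cell genes and 8 of 14 NK genes, and also for 17 of 22 pancreas genes and 17 of 20 immunoglobulin variable region genes. At 3-4 weeks 4 of 5 azurophil granule genes and 9 of 13 genes of later granules were higher in males, against 1.95% of all genes. Their medians were 1.24 and 1.01. At 6-9 weeks limma called none of the 5, with 1 at an unadjusted p below 0.05 and a median of -0.23, and 5 higher and 3 lower of the 13. Red cell membrane genes had 9 of 14 members lower and 2 higher in males at 6-9 weeks, with a median of -0.64, against 0.72 at 24-28 weeks. Of all genes, 3.10% were higher and 5.45% lower at 6-9 weeks. In all, 25 genes were higher in males at all 3 ages, and 1, Ap1s1, was lower. The 25 included 9 members of the interferon list, among them Ifit1 (differences of 1.71, 0.81 and 2.01 at 24-28, 6-9 and 3-4 weeks) and Isg15 (1.92, 0.73 and 1.40). They also included the neutrophil genes Wfdc21 (5.23, 0.84 and 1.36) and S100a8 (2.12, 0.85 and 1.11), and the pancreas gene Reg3a (1.34, 2.41 and 0.81). These 5 genes were chosen from the 25 after their values were seen.

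**Figure D5:**
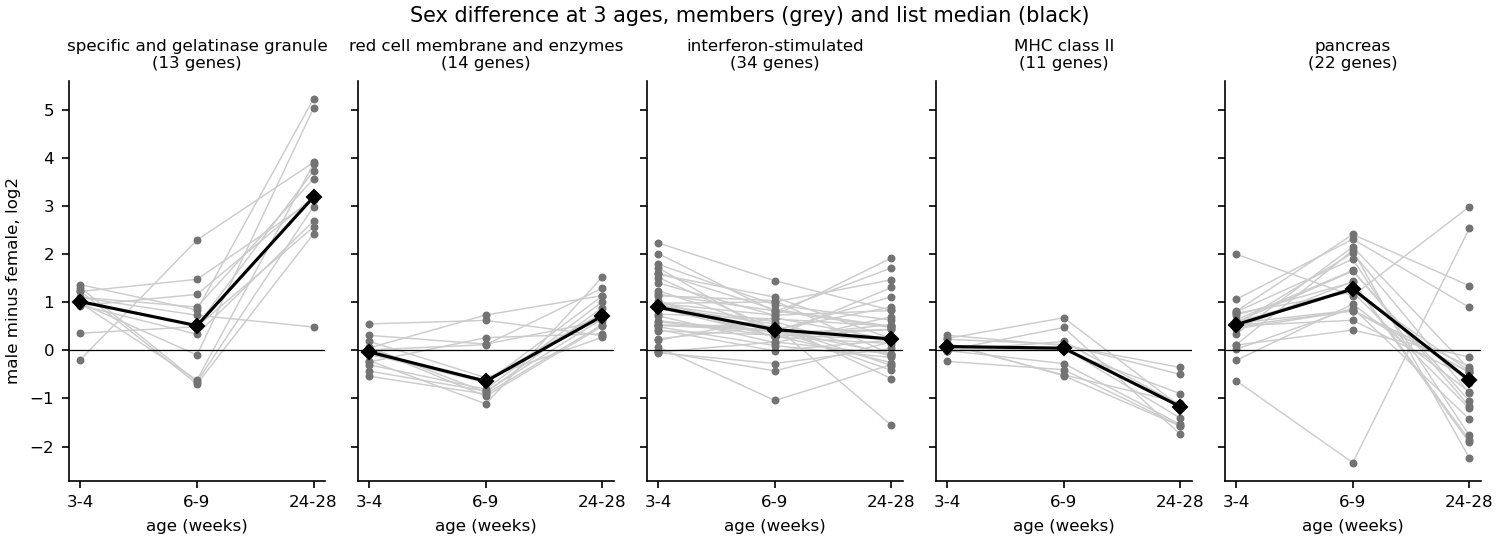
Male minus female difference (log2 scale, vertical axis) at 3-4, 6-9 and 24-28 weeks for the tested members of 5 gene lists; grey lines join the values of a gene and black diamonds are list medians. The granule list has its highest median (3.19) and the MHC class II list its lowest (-1.17) at 24-28 weeks, the interferon list's median is above 0 at all ages, and the pancreas median is 1.28 at 6-9 weeks and -0.62 at 24-28 weeks.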

How the data were processed

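Spleen RNA of 12 samples was hybridised to single-channel Affymetrix arrays. The authors deposited linear MAS5 signal intensities, per the submitters' processing notes, with trimmed means of 800.5 to 800.7. Of 12488 probe sets 66 were controls. A gene table of assembly GRCm38.p6 gave symbols and chromosomes: 10833 probe sets carried 1 symbol, 396 several and 1193 none, and only the first were named. Names of probe sets with suffixes such as _s_at, _f_at or _r_at, which can match related genes, are uncertain.

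Each array was scaled to a trimmed mean of 500 (2% cut at each end), and log2(signal + 32) was fitted with group means in limma 3.58.1 (R 4.3.3; eBayes with intensity trend, 6 residual and 5.43 prior degrees of freedom), two-sided, with Benjamini-Hochberg adjustment over 8926 probe sets that reached 100 on at least 2 arrays. The procedure was also run on simulated data with known changes and independent noise, which cannot show effects of RNA quality or of technical replicates. Alternatives were the offset, filter, trend, normalization, arrays, replicate block and probe set choice.

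Named were the 12 largest increases and decreases, the 10 smallest p-values of the contrast between ages, and up to 8 members of each list by p-value. Adam8, Atp5k, Car1, Cat, Cd24a, Cela2a, Clps, Ddit4, Gbp2, Gbp3, Il1b, Irf1, Irgm1, Kit, Mmp9, Pglyrp1, Reg3g and Sars were added by role after their values were seen. Members and lists were chosen with earlier results of these data known, 3 lists after values were seen.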

Additional observations from a re-analysis of the deposited data

Results flagged for a closer look

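For 1185 autosomal genes the male minus female difference at 24-28 weeks differed from its mean at 3-4 and 6-9 weeks, by the limma contrast of the ages, and the genes named above that passed this test are given here with the size of that contrast on the log2 scale. A value above 0 means that males were higher, relative to females, at 24-28 weeks than at the younger ages. No group holds more than 2 arrays, so no array could be tested as standing apart from its group.

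Among azurophil granule genes the contrast was Ctsg 4.63, Prtn3 3.90, Mpo 3.52 and Elane 3.33. For genes of the specific and gelatinase granules it was Chil3 4.59, Wfdc21 4.13, Ngp 3.70, Lcn2 2.97, Mmp8 2.86, Ltf 2.66, Ifitm6 2.57, Camp 2.16, Hp 2.14, Pglyrp1 2.14 and Anxa1 2.05. The other neutrophil, basophil and acute phase genes had contrasts of Saa3 4.29, Il1r2 2.39, Ly6g 1.98, Saa2 1.87, S100a9 1.79, Mcpt8 1.68, Hdc 1.54, Itgam 1.45, Lrg1 1.18, S100a8 1.14, Clec4d 1.04, Fpr2 1.03 and Il1b -0.66. In red cell, platelet and progenitor genes it came to Tal1 2.63, Rhag 2.19, Gp1bb 1.81, Klf1 1.78, Nfe2 1.76, Myb 1.64, Aqp1 1.57, Rhd 1.51, Uros 1.48, Alad 1.32, Epor 1.29, Hemgn 1.29, Car1 1.26, Slc4a1 1.23, Urod 1.22, Gfi1b 1.19, Car2 1.12, Ppox 1.05, Abcb10 1.03, Epb42 0.74 and Lmo2 0.67. Among cell division genes the contrast was Rrm1 2.09, Birc5 1.68, Aurka 1.56, Cks2 1.56, Stmn1 1.40, Rrm2 1.33, Cdc20 1.22, Cdk1 1.15, Cks1b 1.13, Pcna 1.0 and Tk1 0.97. For amino acid response genes it was Trib3 2.26, Cars 1.62, Asns 1.33, Aars 1.27, Sars 1.19, Atf4 0.94 and Gars 0.78. The T cell and NK cell genes had contrasts of Gzma -0.76, Cd3g -1.04, Klrg1 -1.11, Thy1 -1.14, Fasl -1.24, Cd3d -1.28, Ccl5 -1.38, Klrd1 -1.40, Cd2 -1.64, Ctsw -1.71, Icos -1.87, Cd8a -1.88 and Cd3e -2.45. In B cell and plasma cell genes it came to Cd24a 0.78, Cd79a -0.77, Ms4a1 -0.82, Cd79b -0.83, Pou2af1 -0.86, Xbp1 -0.88, Igha -0.92, Blk -0.97, Jchain -1.23, Ighg3 -1.58, Irf4 -1.68, Cd72 -1.70, Fcer2a -1.81, Ighv1-54 -2.53, Igkv4-59 -2.55, Igkv8-19 -2.77 and Igkv8-30 -3.64. Among antigen presentation and dendritic cell genes the contrast was Ctss -0.56, Psmb8 -0.80, H2-Aa -0.90, Irf8 -0.91, H2-Oa -0.94, Tap1 -0.96, Psmb10 -1.01, Psmb9 -1.07, Itgax -1.07, Batf3 -1.11, H2-DMa -1.23, Cd74 -1.25, Fscn1 -1.31, H2-Ab1 -1.38, H2-Eb1 -1.40, H2-DMb1 -1.43, H2-DMb2 -1.63, Cd83 -1.88, Xcr1 -1.91 and H2-Ob -1.99. For macrophage, stromal and endothelial genes it was Msr1 0.91, Ccr2 0.78, Sparc -0.48, Cldn5 -0.59, C1qc -0.60, Cxcl12 -0.65, Apoe -0.74, Cxcl13 -0.96, C1qa -1.01, Cd68 -1.04, Madcam1 -1.09 and Dcn -1.33. The interferon-stimulated genes had contrasts of Isg15 0.86, Isg20 0.65, Rsad2 0.47, Irf7 -0.52, Ifit3 -0.73, Iigp1 -0.74, Irf1 -0.89, Gbp3 -0.90, Ifit2 -1.01, Gbp2 -1.17 and Cxcl9 -1.93. In pancreas and adipose genes it came to Cela2a 4.02, Reg3b -0.79, Scd1 -0.81, Adipoq -1.63, Clps -2.17, Klk1 -2.17, Ctrl -2.31, Pnliprp1 -2.81, Cel -2.99, Sycn -3.12 and Rnase1 -3.33. Among other genes the contrast was Ccl9 1.86, Atp5md 1.47, Rpl13a 1.10, Ndufb9 1.05, Hspe1 1.0, Hsp90aa1 0.96, Cd55 -0.76, Sgk1 -0.77, Il16 -0.85, Ltb -0.86, Fam189b -1.97, Prp2 -2.17, Prss30 -2.52 and Traf1 -2.97.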

How the results depend on the processing

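Of 1125 calls at 24-28 weeks, an offset of 1 gave 1139, no filter on dim probe sets 996, no intensity trend 882, quantile normalization 940, the 4 arrays of the age alone 916 and the mean over a gene's probe sets 1130. None of these moved the share called higher, 44.5%, by more than 10 percentage points (42.1% to 51.3%, single arrays left out included). Leaving out a single array gave 683 to 1143 calls in all, 301 to 533 higher and 374 to 611 lower. The contrast between ages gave 833 to 1164 calls. The total was 710 without female array a, 683 without male array a and 749 without male array b of 24-28 weeks. Higher calls were 301 without male array a and 315 without male array b, and lower calls 374 without female array a, 397 without female array b and 382 without male array a. A lone array left in a group is assumed to vary like the other groups. The replicate block, with the letters a and b as pairs, gave 1097 calls; the letters did not pair arrays, since deviations from group means correlated at -0.066 to 0.060. Of 304 genes that the naming rule covers Ighm alone reversed, to -1.03 with the mean over probe sets, and the cause was not tested. A change of sign was counted as a reversal only where the gene was called in the main fit or in the other. At most 29 of the 304 lost their call without a single array, and at most 16 under another setting. The contrast could not be fitted on 4 arrays. With 2 arrays per group the number of arrays limits the precision, and the male signals of Cd3e, Icos, Traf1 and Fam189b lay under the level of 100.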

Other observations

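Beyond the lists, RNA quality measures moved with the male arrays at 24-28 weeks. The β-actin 5' probe set was at 6871 and 7483 in males and 15010.5 and 15402 in females, and the Gapdh 3' to 5' ratio was 2.37 and 2.30 in males and 1.63 and 1.82 in females, while Gapdh ratios on the younger arrays spanned 1.06 to 2.92. The share of probe sets with a signal of at least 100 was 59.4% on both male arrays and 62.3% and 60.7% on the female arrays.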
